A study of Mus musculus with 18 samples.

Results

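The 9 complement genes described here were followed through cultures of young, old and rejuvenated old mesenchymal stem cells (MSCs). They were the central components C3 and C4b, the proteases C1s1, C1ra, Cfb and Cfd, the inhibitors Serping1 and Cd55, and the receptor C3ar1. The genes were taken by symbol from the 27179 genes of the expression table, and all 9 were listed. Of these, 7 averaged 10 or more normalized counts across the 18 libraries and were tested, among 14353 genes in all. Cfd and Cd55 were below that level and are described by their values.

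Complement is a cascade of secreted and membrane proteins that marks surfaces for uptake or lysis. In the classical pathway, C1q recognises a surface and carries the proteases C1r and C1s, of which C1s cleaves C4 and C2. The alternative pathway uses factor B, which is cleaved by factor D, and both routes meet at C3, whose cleavage releases a fragment sensed by the receptor encoded by C3ar1. Fibroblast-like stromal cells are known sources of C3, C1r, C1s, C4 and factor B, whereas C1q and C3ar1 are typical of macrophages.

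MSCs are stromal cells of the bone marrow that attach to plastic and expand in culture. The donors were male C57 black mice (labelled C57BL6) of 6 weeks for young MSCs and of 18 to 24 months for old MSCs. Old MSCs were cultured alone for 7 days in replicates of 100000 cells, and rejuvenated old MSCs were old MSCs that shared the well over these 7 days with young MSCs behind a membrane with pores of 0.4 µm, which passes soluble factors but not cells. The young libraries were likewise labelled with day 7 and 100000 cells per well. The methods give passages 2 to 5 for the cells used. Each group held 6 libraries, labelled as biological replicates. The sources do not say whether these came from separate mice, so p-values measure the spread between the libraries, which may be technical. Old MSCs that shared a well with other old MSCs were not analysed here, so in the comparison of rejuvenated old with old MSCs the presence of other cells and the age of their donors cannot be told apart.

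The libraries held 22936251 to 29559194 reads on genes. The stromal genes Cd44, Pdgfra and Col1a2 were read in all 18 libraries. Of 10 stromal markers 4 were higher and 6 lower in young than in old MSCs, where 85.7% of all genes tested were called. Among them, Thy1 was at 175 to 227 normalized counts in young MSCs and at 0 to 3.23 in old MSCs, while Eng was at 147 to 175 in young MSCs and at 7008 to 7681 in old MSCs. The Y-linked gene Ddx3y was at 0 to 2.06 in young MSCs against 1486 to 1950 in the other libraries. Xist, the RNA of the inactive X, had at most 40 reads in any library. It was at 21.2 to 41.2 in young MSCs against 1.97 to 14.4 in the other libraries. The young libraries thus went against the stated male donors in their Y-linked RNA, and this and age cannot be told apart wherever young MSCs enter a comparison. Rejuvenated old replicates 1 and 3 each stood apart from their group in a gene that was high in young MSCs, though not in all such genes. In replicate 1, Cd34 was at 402 against 24.2 to 41.9 in the other rejuvenated old libraries, and in replicate 3, C1rb, a copy of C1ra, was at 370.1 against 30.2 to 36.0. In young MSCs these genes were at 6787 to 7191 (Cd34) and 1318 to 1423 (C1rb). Results that changed without both libraries are given with and without them.

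C3, C4b, C1s1, C1ra, Cfb and Serping1 were higher in young than in old MSCs, and each of them was also higher in rejuvenated old than in old MSCs. C3, C4b and Cfb stayed well below the young level there. Serping1, the inhibitor of C1r and C1s, had the reverse order of sizes, since it differed little between young and old MSCs and rose 2.85-fold in rejuvenated old MSCs. C3ar1 was the only gene of the 7 that was lower in young than in old MSCs. Fold changes are differences between group means of log2(normalized count + 1), given with their standard error, and the stated folds are ratios of mean normalized counts. The comparisons share groups, the old libraries among them, so each comparison's values are given side by side.

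In young against old MSCs, 6 of the 7 genes were called higher and 1 lower with limma at an adjusted p under 0.05. This comparison called 85.7% of all genes tested, 41.6% as higher and 44.1% as lower in young MSCs. The 6 young libraries lay above all 6 old libraries for 6 of the genes and below them for 1, against 73.9% of all genes tested with no overlap. The median difference of the 7 genes was 0.58 on the log2 scale, against -0.02 over all genes tested.

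In rejuvenated old against old MSCs, 6 of the 7 genes were called higher and 0 lower, where 41.6% of all genes were called, 21% as higher and 20.6% as lower. The rejuvenated old libraries lay above the old libraries without overlap for 5 genes, against 22% of all genes tested with no overlap in either direction. The median difference was 0.54 against 0.01 over all genes. Without rejuvenated old replicates 1 and 3 the count was again 6 higher and 0 lower. Ranked from the largest rise among the 14353 genes tested, Serping1 was at 69, C4b at 85, Cfb at 91, C1ra at 644, C1s1 at 1064 and C3 at 1888.

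In rejuvenated old against young MSCs, 2 genes were called higher (Serping1 and C3ar1) and 4 lower (C3, C4b, C1s1 and Cfb). Of all genes tested 85.6% were called, 44.1% as higher and 41.5% as lower in rejuvenated old MSCs, and 70.5% had no overlap. For 2 of the 7 genes the rejuvenated old libraries all lay above the young libraries, and for 3 they all lay below. Without rejuvenated old replicates 1 and 3, C1s1 was no longer called and 3 genes were lower.

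**Figure D1:**
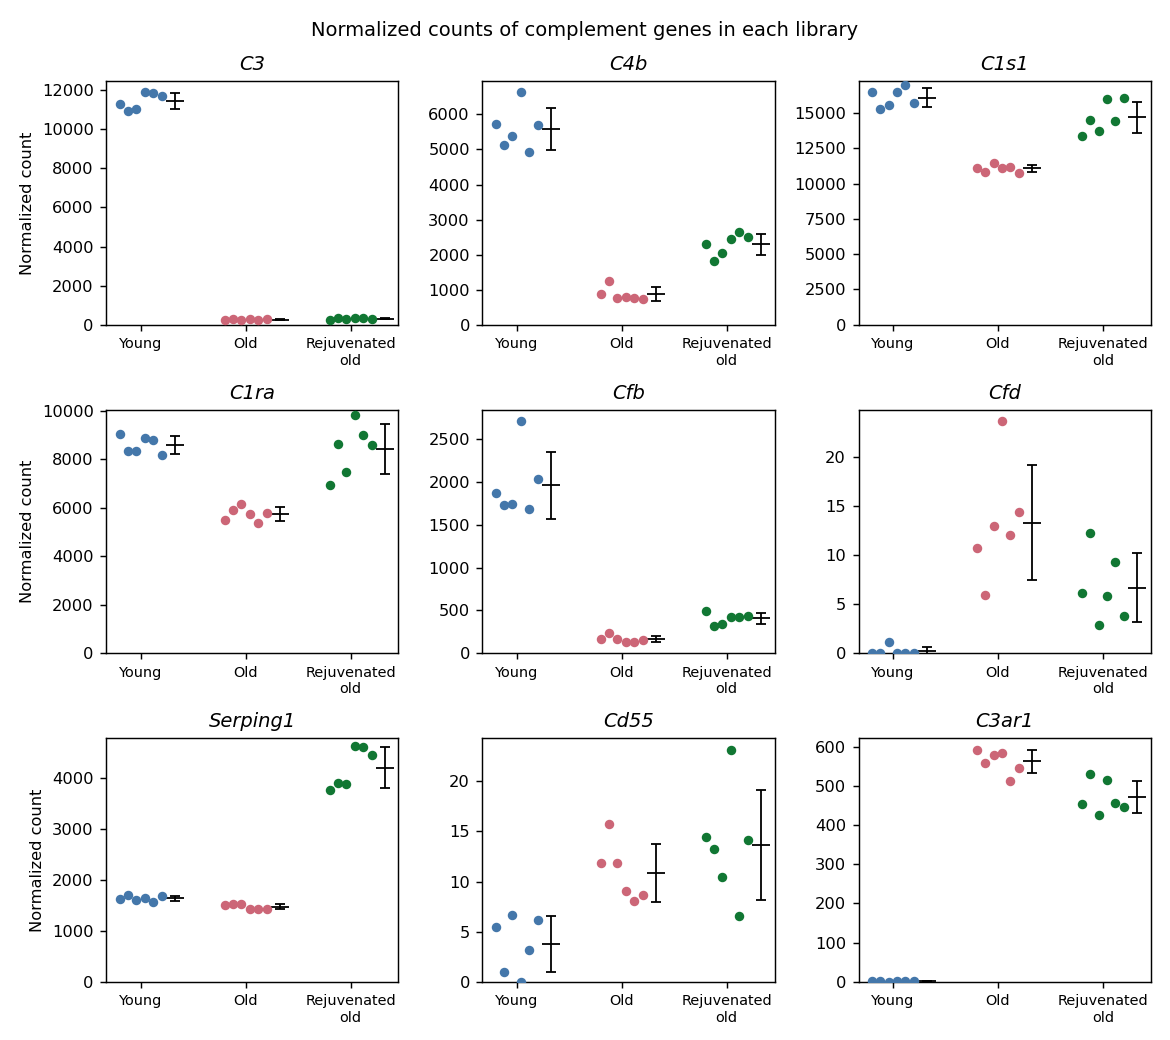
Normalized count (vertical axis, starting at 0) of each of the 9 complement genes in every library, as 1 point per library in the order of the replicates, with the mean and SD (n = 6) beside each group. C3, C4b and Cfb are high in young MSCs, Serping1 is high in rejuvenated old MSCs at 3752 to 4616, and C3ar1 is at 0 to 2.13 in young MSCs.

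C3, the component on which all activation routes meet, was the gene of the 7 with the largest rise in young over old MSCs. It was at 10943 to 11884 normalized counts in young MSCs (median 11489), at 221 to 285 in old MSCs (median 268) and at 269.8 to 359 in rejuvenated old MSCs (median 329). All young libraries stood far above the others, while the old and rejuvenated old libraries overlapped through rejuvenated old replicate 1 (269.8). C3 was 43.3-fold higher in young than in old MSCs (5.44 ± 0.07, adjusted p = 4.74e-26). In rejuvenated old MSCs it was 1.21-fold higher than in old MSCs (0.28 ± 0.07, adjusted p = 0.00194) and 35.7-fold lower than in young MSCs (-5.16 ± 0.07, adjusted p = 1.14e-25). Rejuvenated old replicates 1 and 3, which were high in Cd34 or C1rb, had the lowest C3 of their group, at 269.8 and 285.4. Since these are bulk libraries, fewer cells of a type and less RNA per cell cannot be told apart, here and for the genes below.

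C4b, whose product is cleaved by C1s to start the classical C3 convertase, held an intermediate level in rejuvenated old MSCs. Its normalized counts were 4925 to 6654 in young MSCs (median 5536), 747 to 1261 in old MSCs (median 790.0) and 1815 to 2636 in rejuvenated old MSCs (median 2372). The 3 groups did not overlap. C4b was 6.40-fold higher in young than in old MSCs (2.70 ± 0.11, adjusted p = 1.44e-16) and 2.63-fold higher in rejuvenated old than in old MSCs (1.41 ± 0.11, adjusted p = 7.72e-10). It was 2.44-fold lower in rejuvenated old than in young MSCs (-1.29 ± 0.11, adjusted p = 1.44e-10). Old replicate 2 was the highest old library at 1261, against 747 to 883 in the others.

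C4b has a near-identical copy, C4a, on the same chromosome. Of the 50-base windows of the C4b transcript 35.2% also occurred in C4a, so the split of reads between the pair depends on the counting and is uncertain. C4a was itself 221 to 290 in young MSCs (median 273), 55.1 to 84.9 in old MSCs (median 60.1) and 57.9 to 94.3 in rejuvenated old MSCs (median 77.8). It was higher in young than in old MSCs (2.03 ± 0.13, adjusted p = 7.25e-13), with a difference of 0.21 ± 0.13 between rejuvenated old and old MSCs (adjusted p = 0.203).

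C1s1 and C1ra encode the serine proteases of the C1 complex and lie 6904 bases apart on chromosome 6. C1s1 was at 15270.1 to 16953 normalized counts in young MSCs (median 16100), at 10769.7 to 11463 in old MSCs (median 11104) and at 13403 to 16070 in rejuvenated old MSCs (median 14491). C1ra was at 8159 to 9031 in young MSCs (median 8575), at 5357 to 6166 in old MSCs (median 5774) and at 6960.2 to 9832 in rejuvenated old MSCs (median 8608). For both genes the old libraries lay below all others, and the rejuvenated old libraries overlapped with the young ones. C1s1 was 1.45-fold and C1ra 1.495-fold higher in young than in old MSCs (0.54 ± 0.04, adjusted p = 2.32e-11, and 0.58 ± 0.06, adjusted p = 5.31e-09). Rejuvenated old MSCs exceeded old MSCs by folds of 1.33 for C1s1 (0.40 ± 0.04, adjusted p = 5.22e-08) and 1.47 for C1ra (0.54 ± 0.06, adjusted p = 2.07e-07).

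Between rejuvenated old and young MSCs, the difference of C1ra was -0.04 on the log2 scale with a 95% interval of -0.16 to 0.09 (adjusted p = 0.562). It was called lower in rejuvenated old MSCs with every library scaled to the same total (-0.13, adjusted p = 0.0443) and with quantile normalization (-0.13, adjusted p = 0.0430). Its sign turned without rejuvenated old replicate 1, at 0.02 (adjusted p = 0.781). C1s1 was called lower by 0.13 ± 0.04 (adjusted p = 0.00464), and this call was lost without rejuvenated old replicates 1 and 3 (-0.08, adjusted p = 0.0673).

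Mice carry a second copy of each of these proteases, and the copies had a different pattern. C1rb shared 48% of the 50-base windows of C1ra, and C1s2 shared 24.3% of those of C1s1, so reads may be split between them. C1rb was at 1318 to 1423 in young MSCs (median 1353), 17.7 to 33.4 in old MSCs (median 26.4) and 30.2 to 370.1 in rejuvenated old MSCs (median 33.9). C1s2 was at 902 to 1066 in young MSCs (median 998), 21.1 to 33.7 in old MSCs (median 29.7) and 21.7 to 35.0 in rejuvenated old MSCs (median 25.1). Both copies rose in young over old MSCs, by 5.70 ± 0.41 for C1rb (adjusted p = 7.63e-12) and 5.10 ± 0.13 for C1s2 (adjusted p = 1.51e-20). Neither was called between rejuvenated old and old MSCs with all libraries, where the differences were 0.94 ± 0.41 (adjusted p = 0.0702) and -0.07 ± 0.13 (adjusted p = 0.706). Without rejuvenated old replicate 3, in which C1rb was at 370.1, its difference was 0.36 and was called (adjusted p = 0.0274), and without replicate 2 it was 1.08 (adjusted p = 0.0498).

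Promoters were available for 6 of the 9 genes, and those of C3, of the neighbours C1s1 and C1ra, and of C3ar1 are shown because these genes had the largest rise in young MSCs, a shared pattern, and the opposite direction. Each sequence is the 250 bases before an annotated start in RefSeq GRCm38.p6 (mm10), read 5′ to 3′ on the strand of the gene, with capitals for a motif match. The C1s1 start used lies inside the span of its gene, which reaches to 124542392, so that window overlaps the gene.
C3 promoter, chr17:57228137-57228386, minus strand: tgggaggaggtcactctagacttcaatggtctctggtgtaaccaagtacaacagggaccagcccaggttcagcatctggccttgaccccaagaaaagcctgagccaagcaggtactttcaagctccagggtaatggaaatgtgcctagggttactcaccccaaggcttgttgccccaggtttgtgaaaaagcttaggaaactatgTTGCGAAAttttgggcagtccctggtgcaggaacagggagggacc
C1s1 promoter, chr6:124542360-124542609, minus strand: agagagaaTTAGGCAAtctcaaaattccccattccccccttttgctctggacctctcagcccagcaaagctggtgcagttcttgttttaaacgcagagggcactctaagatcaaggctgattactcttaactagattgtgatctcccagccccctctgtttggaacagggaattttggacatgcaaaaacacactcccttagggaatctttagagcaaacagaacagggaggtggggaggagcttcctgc
C1ra promoter, chr6:124512371-124512620, plus strand: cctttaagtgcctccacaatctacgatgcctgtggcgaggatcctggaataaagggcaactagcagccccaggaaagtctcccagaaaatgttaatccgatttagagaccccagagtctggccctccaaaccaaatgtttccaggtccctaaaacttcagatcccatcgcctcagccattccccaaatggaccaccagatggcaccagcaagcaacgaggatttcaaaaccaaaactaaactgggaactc
C3ar1 promoter, chr6:122856158-122856407, minus strand: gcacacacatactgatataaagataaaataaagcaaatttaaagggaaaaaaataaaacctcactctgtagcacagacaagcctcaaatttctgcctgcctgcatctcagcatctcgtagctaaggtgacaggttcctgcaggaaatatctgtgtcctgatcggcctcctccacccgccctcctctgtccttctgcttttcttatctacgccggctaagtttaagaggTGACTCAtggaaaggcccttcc
Both strands were searched for AP-1 (TGANTCA), C/EBP (TTGCNNAA), NF-kB (GGGNNTTCC), GAS (TTCNNNGAA) and IRF (GAAANNGAA) motifs. The C3 window held a C/EBP match that begins 45 bases before the start, and the first C1s1 window held one on the reverse strand that begins 242 bases before it, where 9.56% of the 32851 promoter windows held this motif. The C3ar1 window held an AP-1 match that begins 22 bases before the start, a motif held by 6.75% of windows. The C1ra window held none of the 5 motifs. Of the other windows, those of Cfd and of the other C1s1 start held no match, and that of Cd55 held an NF-kB match, as did 4.98% of all windows. The Cd55 window (chr1:130462745-130462994) lay wholly inside the span of the gene, which reaches to 130465009. GAS and IRF motifs, held by 7.02% and 7.13% of all windows, were not found in these 7 windows.

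Cfb encodes factor B, the protease of the alternative pathway convertase. It was at 1690.4 to 2717 normalized counts in young MSCs (median 1805), at 129.98 to 238 in old MSCs (median 158) and at 319 to 491 in rejuvenated old MSCs (median 428). As for C4b, the 3 groups did not overlap, and the rejuvenated old libraries lay between the others. Cfb was 11.9-fold higher in young than in old MSCs (3.57 ± 0.13, adjusted p = 3.75e-17) and 2.48-fold higher in rejuvenated old than in old MSCs (1.32 ± 0.13, adjusted p = 5.52e-08). It was 4.81-fold lower in rejuvenated old than in young MSCs (-2.26 ± 0.13, adjusted p = 2.39e-13). Its neighbour C2, the corresponding protease of the classical pathway, lies 88 bases away on chromosome 17 and shared no 50-base window with it. C2 had a different order, with 14.1 to 23.3 in young MSCs (median 17.99), 80.8 to 191 in old MSCs (median 124) and 211 to 235 in rejuvenated old MSCs (median 227). It was lower in young than in old MSCs (-2.70 ± 0.17, adjusted p = 4.24e-13) and higher in rejuvenated old than in old MSCs (0.86 ± 0.17, adjusted p = 0.000233).

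Cfd encodes factor D (adipsin), the protease that cleaves factor B and is known as a product of fat cells. It was read at most once per young library, with normalized counts of 0 to 1.12 (median 0), against 5.91 to 23.6 in old MSCs (median 12.5) and 2.85 to 12.3 in rejuvenated old MSCs (median 5.99). The young libraries all lay below the old ones, and the old and rejuvenated old libraries overlapped. With the young libraries set to a floor of 3 reads each, Cfd was at least 4.21-fold lower in young than in old MSCs. Rejuvenated old MSCs held 0.504 times the mean of old MSCs (-0.92, adjusted p = 0.0447 where genes of any level were tested). At these levels, of at most 26 reads in any library, small differences were not detectable.

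Adipocyte genes moved along with Cfd in the comparison with young MSCs. The summed level of 8 adipocyte markers ran from 16838 to 19369 in young, from 43187 to 45586 in old and from 47588 to 60640 in rejuvenated old MSCs. All 6 markers tested were lower in young than in old MSCs, where 44.1% of all genes tested were called lower. In rejuvenated old against old MSCs 4 rose, 1 fell and 1 was not called, against 21% of all genes called higher and 20.6% lower. The part of these markers in the values of Cfd was not tested. Of the 8 markers, Adipoq was at 0 to 3.26 in young and 1079 to 1246 in old MSCs, and Plin1 was at 0 in every young library and at 21.8 to 39.8 in old MSCs. Their means in rejuvenated old MSCs lay below those in old MSCs, as that of Cfd did, while the summed level lay above. The other 4 markers tested went the other way and were called higher, namely Fabp4 (0.48 ± 0.08), Pparg (0.21 ± 0.06), Lpl (0.30 ± 0.05) and Cebpa (0.38 ± 0.07). Adipoq was at 561 to 922 in rejuvenated old MSCs, below all old libraries (-0.63 ± 0.29, adjusted p = 0.0816). This difference was called without young replicate 3 (adjusted p = 0.0442) or young replicate 4 (adjusted p = 0.0436). Plin1 was at 10.3 to 23.6 in rejuvenated old MSCs (-0.70 ± 0.23, adjusted p = 0.0194). Its adjusted p was 0.0538 without rejuvenated old replicate 1 or old replicate 1, and 0.0765 without rejuvenated old replicates 1 and 3. Most of the sum came from Lpl, at 31385 to 34180 in old and 35540.1 to 44992 in rejuvenated old MSCs.

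Serping1 encodes the C1 inhibitor, a serpin that inactivates C1r and C1s. It was at 1559 to 1694 normalized counts in young MSCs (median 1637), at 1419 to 1530.1 in old MSCs (median 1469) and at 3752 to 4616 in rejuvenated old MSCs (median 4173). The rejuvenated old libraries lay far above both other groups, whose ranges lay close together without overlap. Serping1 was 2.85-fold higher in rejuvenated old than in old MSCs (1.51 ± 0.05, adjusted p = 2.53e-16) and 2.56-fold higher than in young MSCs (1.35 ± 0.05, adjusted p = 1.12e-17). Young MSCs were 1.11-fold above old MSCs (0.15 ± 0.05, adjusted p = 0.00494). Its rise in rejuvenated old MSCs therefore went past the young level, unlike that of C3, C4b and Cfb.

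Cd55 encodes decay-accelerating factor, the membrane protein that breaks up C3 convertases, and was barely read. Its normalized counts were 0 to 6.70 in young MSCs (median 4.32), 8.03 to 15.8 in old MSCs (median 10.5) and 6.52 to 23.2 in rejuvenated old MSCs (median 13.7). The young libraries all lay below the old ones, and the other groups overlapped. Where genes of any level were tested, Cd55 was lower in young than in old MSCs (-1.61, adjusted p = 0.00172), and rejuvenated old and old MSCs differed by 0.25 (adjusted p = 0.732). Its copy Cd55b, which shared 13.3% of the 50-base windows of Cd55, was at 0 in every library.

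C3ar1 encodes the receptor for the fragment released from C3 and is known from macrophages and other myeloid cells. It had at most 2 reads in each young library, with normalized counts of 0 to 2.13 (median 2.01), against 513 to 592 in old MSCs (median 569) and 425 to 529.5 in rejuvenated old MSCs (median 455). Young MSCs stood apart from both other groups, which overlapped with each other. With a floor of 3 reads per young library, C3ar1 was at least 178-fold lower in young than in old MSCs (adjusted p = 1.87e-20) and at least 149-fold higher in rejuvenated old than in young MSCs (adjusted p = 3.74e-20). Rejuvenated old and old MSCs differed by -0.26 ± 0.20 on the log2 scale (95% interval -0.67 to 0.15, adjusted p = 0.317). The fit of these groups without the young libraries called the same difference (-0.26, adjusted p = 0.00224), as did edgeR's quasi-likelihood test (adjusted p = 0.00139) and DESeq2 (adjusted p = 0.000223) on recovered reads. It was also called with a pseudocount of 10 (-0.25, adjusted p = 0.00717) and without young replicate 3 (adjusted p = 0.0415), the young library with no C3ar1 read.

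**Figure D2:**
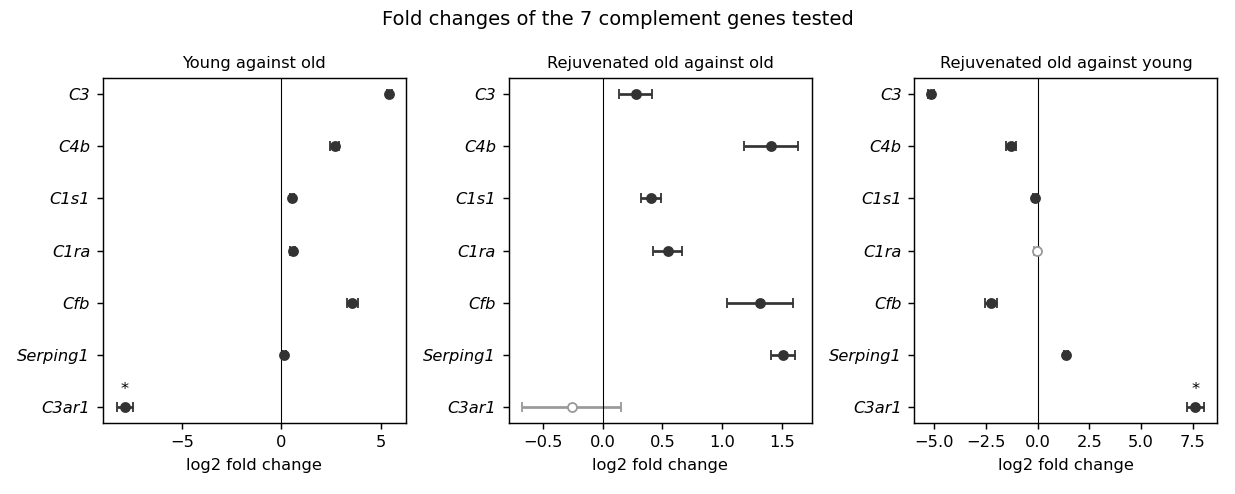
Fold change on the log2 scale (horizontal axis, with its own range in each panel) with its 95% interval for the 7 complement genes tested in each of the 3 comparisons, with filled points for an adjusted p under 0.05 and open points otherwise. An asterisk marks C3ar1, for which young MSCs were at the floor, and in rejuvenated old against old MSCs all genes but C3ar1 lie to the right of 0.

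Macrophage markers moved along with C3ar1. The summed level of 12 macrophage markers ran from 947 to 1067 in young, from 12988 to 16234 in old and from 12845 to 15696 in rejuvenated old MSCs. Of the 11 markers tested, 10 were lower and 1 (Aif1) higher in young than in old MSCs, where 85.7% of all genes tested were called. In young MSCs 5 of the 12 were at the floor. Ptprc and Adgre1 had no read in young MSCs and were at 162 to 208 and 243 to 333 in old MSCs. Other markers were read in every young library, among them Cd68 (395 to 480), Cd14 (192 to 264), Lyz2 (153 to 187) and Csf1r (101 to 134). In rejuvenated old against old MSCs 0 markers rose and 1 fell, which was Cd68 (-0.32 ± 0.06, adjusted p = 0.000102), where 41.6% of all genes were called. The part of these markers in the values of C3ar1 was not tested.

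**Figure D3:**
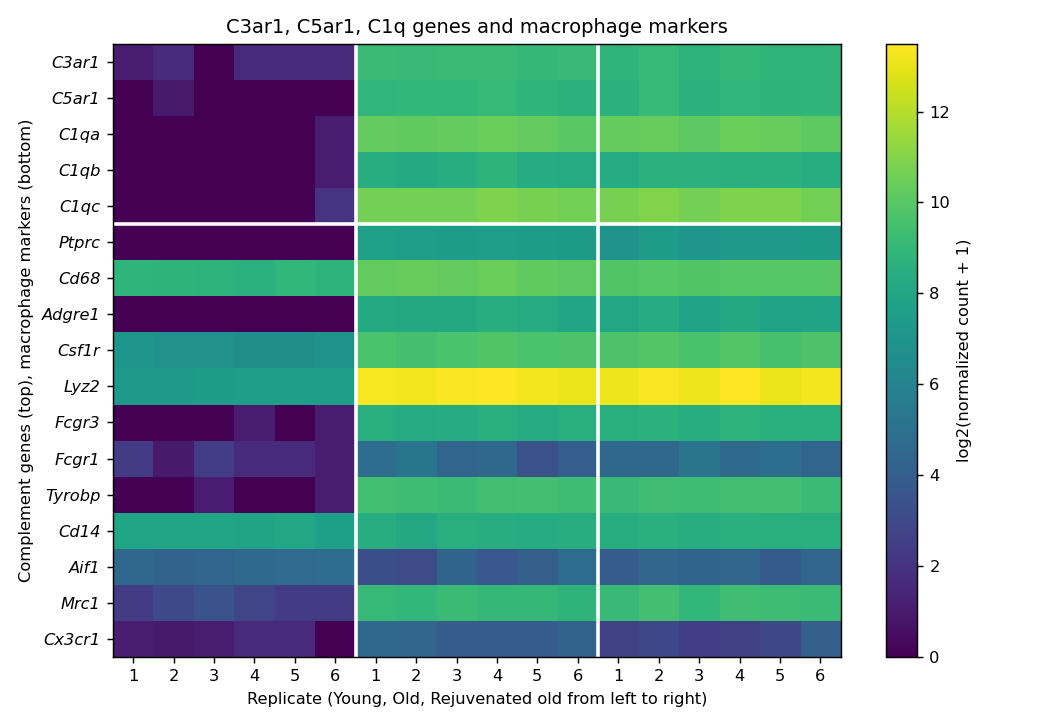
Colour scale of log2(normalized count + 1) in each of the 18 libraries (columns, by group and replicate) for C3ar1, C5ar1 and the C1q genes above the line and for the 12 macrophage markers below it. C3ar1, C5ar1, the C1q genes, Ptprc and Adgre1 are at or near 0 in all young libraries and read in all old and rejuvenated old libraries.

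Levels of different genes were compared per kilobase of their longest coding transcript. In young MSCs the order of mean levels per kilobase was C1s1 (5460 ± 220.4), C1ra (2881 ± 120), C3 (2229 ± 79.8), C4b (1038 ± 114), Serping1 (926 ± 28.1) and Cfb (713 ± 142), each with its SD over 6 libraries. Of these neighbours C4b and Serping1 overlapped, as did Serping1 and Cfb, and Cd55, C3ar1 and Cfd all lay below 2.65 per kilobase. In old MSCs C1s1 (3759 ± 84.1) and C1ra (1927 ± 97.6) again came first, and the order went on with Serping1 (833 ± 29.5), C4b (162 ± 36.6), C3ar1 (131 ± 6.84), Cfb (60.0 ± 14.2) and C3 (51.4 ± 4.39), of which Cfb and C3 overlapped. C3 thus stood in the third place in young MSCs and in the seventh in old MSCs. In rejuvenated old MSCs the order was C1s1 (4986 ± 378), C1ra (2823 ± 349), Serping1 (2374 ± 224), C4b (426 ± 57.7), Cfb (148 ± 23.1), C3ar1 (109 ± 9.58) and C3 (62.4 ± 7.22). The pairs C1ra and Serping1, and Cfb and C3ar1, overlapped there. Cfd and Cd55 came last in both groups of old MSCs, at 14.4 ± 6.34 and 4.29 ± 1.14 in old MSCs and 7.26 ± 3.83 and 5.39 ± 2.18 in rejuvenated old MSCs.

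Of 50 other complement genes, 28 were tested. In young against old MSCs 8 were higher, 19 lower and 1 was not called, with a median of -1.12, where 85.7% of all genes tested were called. In rejuvenated old against old MSCs 10 were higher, 3 lower and 15 not called, with a median of 0.21, and this share lay near the 41.6% called over all genes tested. Set against young MSCs, rejuvenated old MSCs had 20 higher and 7 lower, with 1 not called and a median of 1.11, where 85.6% of all genes tested were called. The 7 genes tested above were thus mostly higher in young MSCs where the rest of the pathway was mostly lower, with no test of that contrast. Cfd and Cd55, left out of the 7 for their low level, went with the rest, since their young libraries all lay below the old ones. The same shares over all genes tested stand beside the counts of the lists below.

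Recognition molecules, which bind the target surface, were mostly lower in young MSCs. Of the 6 tested, 1 was higher and 5 lower in young than in old MSCs, and 1 rose in rejuvenated old against old MSCs. The C1q chains C1qa, C1qb and C1qc were at 0 to 3.09 in young MSCs and at 1066 to 1342, 303 to 442 and 1590.2 to 1912 in old MSCs. At floor values the young level was at least 385-fold lower for C1qa. In rejuvenated old MSCs these genes were at 1096 to 1395, 320.3 to 405 and 1577 to 1934, overlapping with old MSCs, with differences of 0.04 ± 0.14, 0.10 ± 0.16 and 0.07 ± 0.24 and adjusted p of 0.845, 0.655 and 0.838. These standard errors come from the fit of all 3 groups. They therefore include the spread of the young libraries near 0, of which only replicate 6 had reads of the C1q genes. The same holds for Colec10, C5ar1, Itgam and Csmd1, which were also at the floor in young MSCs. Colec10, a collectin of the lectin pathway, was at 0 to 2.06 in young, 299 to 372 in old and 666 to 799.6 in rejuvenated old MSCs, a rise of 1.11 ± 0.21 over old MSCs (adjusted p = 0.000248). The C1q chains moved with the macrophage markers described above, whose part in these values was not tested, whereas Colec10 was higher in every rejuvenated old library than in any old one.

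Of 6 other proteases tested, 3 were higher and 3 lower in young than in old MSCs, and in rejuvenated old against old MSCs 2 rose (C2 and Masp2), 1 fell and 3 were not called. The rise of Masp2 (0.85 ± 0.34, adjusted p = 0.0492) was lost when any of 14 of the 18 libraries was left out. The higher ones in young MSCs were C1rb, C1s2 and Masp2, a protease of the lectin pathway at 36.9 to 55.5 in young and 0.985 to 8.18 in old MSCs (3.501 ± 0.34, adjusted p = 1.86e-09). The central and terminal components had 3 genes tested, with 1 higher (C4a) and 2 lower in young than in old MSCs, and 1 rise in rejuvenated old against old MSCs. That was Cfp, which encodes properdin, the stabiliser of the alternative convertase, at 836 to 949 in old and 946 to 1158 in rejuvenated old MSCs (0.22 ± 0.06, adjusted p = 0.00535). C8g, a chain of the terminal C8 complex, was lower in young than in old MSCs (-1.31 ± 0.12, adjusted p = 4.51e-10).

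Among the soluble regulators, Clu, clusterin, which blocks the terminal complex, was at 1269 to 1391 in young, 601 to 698 in old and 994 to 1634 in rejuvenated old MSCs. It rose by 0.99 ± 0.09 over old MSCs (adjusted p = 1.67e-08), and rejuvenated old and young MSCs differed by -0.05 ± 0.09 (adjusted p = 0.614). C4bp, the C4b-binding protein, had no read in young MSCs and was at 17.7 to 31.2 in old and 16.5 to 47.6 in rejuvenated old MSCs, with a difference of 0.50 ± 0.25 between the last groups (adjusted p = 0.113). Without rejuvenated old replicate 1 that difference was called (0.69, adjusted p = 0.0212).

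Membrane regulators had 5 genes tested, with 0 higher, 4 lower and 1 not called in young against old MSCs. In rejuvenated old against old MSCs 2 rose, namely Cr1l (0.37 ± 0.04, adjusted p = 7.16e-07), which encodes Crry, a rodent inhibitor of C3 convertases, and Cd59b (0.91 ± 0.20, adjusted p = 0.00108), which blocks the membrane attack complex. Csmd1 and Cd59a had the largest differences of these genes between young and old MSCs. Csmd1 was at 0 to 3.26 in young, 8.60 to 27.1 in old and 22.8 to 44.4 in rejuvenated old MSCs. Its difference between the last groups was 0.86 ± 0.35 (adjusted p = 0.0505). That difference was called without young replicate 1 (adjusted p = 0.00984), old replicate 5 (adjusted p = 0.0396) or rejuvenated old replicate 3 (adjusted p = 0.0402). Cd59a, a close relative of Cd59b, was at 259 to 322 in young, 684 to 738 in old and 607 to 734 in rejuvenated old MSCs. Cr1l was at 538 to 646 in young, 845 to 896 in old and 1063 to 1228 in rejuvenated old MSCs. Receptors other than C3ar1 had 5 genes tested, with 1 higher and 4 lower in young than in old MSCs, and 3 rises and 1 fall in rejuvenated old against old MSCs. C5ar1, the receptor for the fragment of C5, resembled C3ar1, with 0 to 0.996 in young, 404 to 524 in old and 402 to 517 in rejuvenated old MSCs and a difference of -0.07 ± 0.15 between the last groups (adjusted p = 0.734). Itgam, a chain of complement receptor 3, was at 0.996 to 2.23 in young and 231 to 315 in old MSCs, and rose to 316 to 441 in rejuvenated old MSCs (0.48 ± 0.13, adjusted p = 0.00548), while Itgb2, its partner chain, fell (-0.26 ± 0.06, adjusted p = 0.000855). Cd93, a membrane protein once described as a C1q receptor, was at 148 to 187 in young, 266 to 345 in old and 365 to 477 in rejuvenated old MSCs, a rise of 0.45 ± 0.08 over old MSCs (adjusted p = 0.000113).

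**Figure D4:**
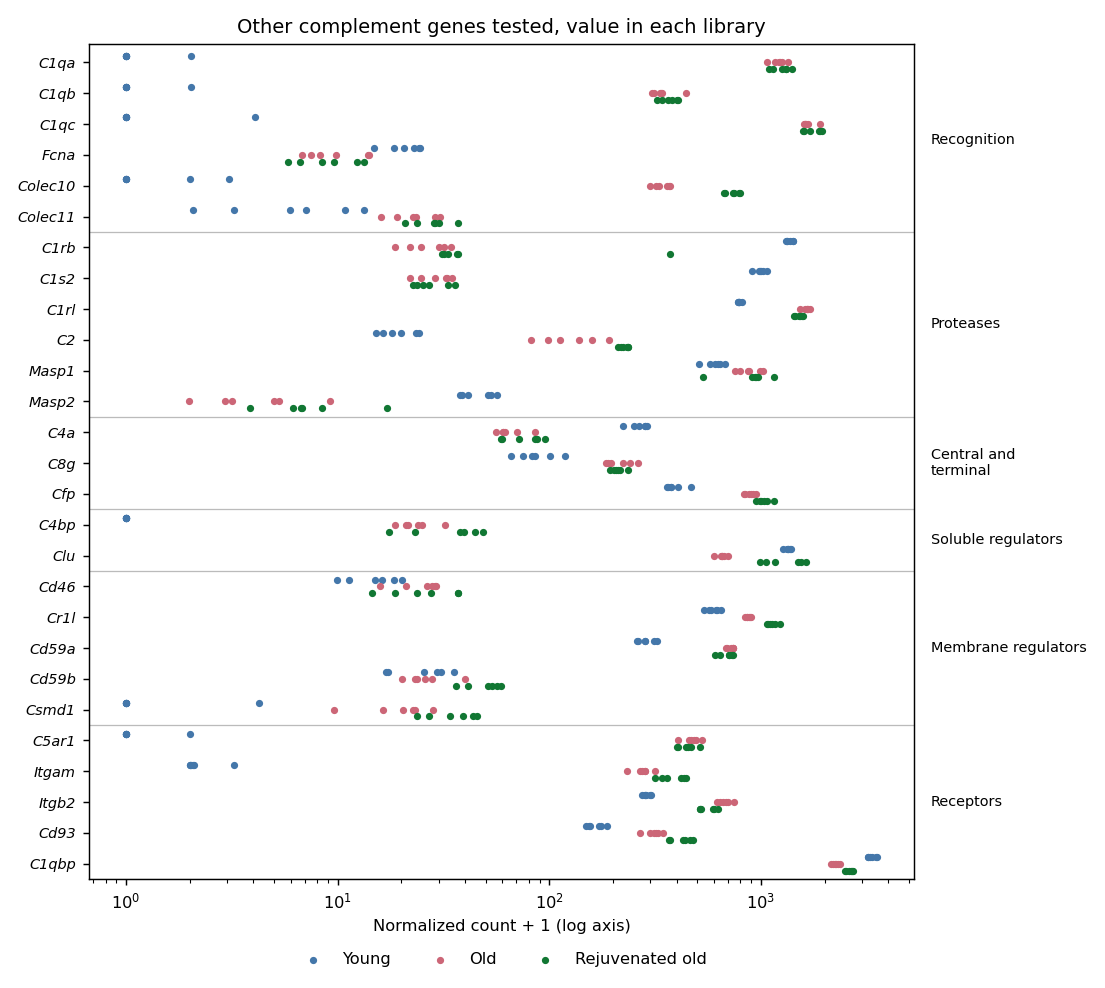
Normalized count + 1 (horizontal log axis) of 27 of the 28 other complement genes tested, with 1 point per library coloured by group and genes ordered by role. The C1q genes, Colec10, C5ar1 and Itgam are near the left edge in young MSCs, and C1rb shows 1 rejuvenated old library at 370.1, far from the rest of that group.

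For each gene, the genes with the most similar levels over the 18 libraries were found by Pearson's r of log2(normalized count + 1). These values are a description, since the libraries fall into 3 groups and share their normalization. C3 was most like Raly (0.998) and Aff3 (0.998), and Raly, an RNA-binding protein gene, was at 29923 to 32310 in young, 6454 to 6843 in old and 7025 to 7900.1 in rejuvenated old MSCs. C4b was most like Cacna1a (0.992) and the MHC class I gene H2-K1 (0.991), and Cfb most like Isg20 (0.995), an interferon-induced nuclease gene, and Tinagl1 (0.988). C1ra was most like Clu (0.964) and C1s1 (0.953), and C1s1 most like Dlg3 (0.968) and Ablim1 (0.963).

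Serping1 was most like Sik1 (0.985), a kinase gene induced by cyclic AMP, and Apln (0.984), which encodes the vascular peptide apelin. Apln was at 187 to 262 in young, 214 to 267 in old and 604 to 947 in rejuvenated old MSCs, a rise of 1.78 ± 0.10 over old MSCs (adjusted p = 2.93e-12), and so shared with Serping1 a level in rejuvenated old MSCs above both other groups. C3ar1 was most like Ddit4l (0.998) and Fam124a (0.998). Of the weakly read genes, Cfd was most like Cmbl (0.969) and Mgp (0.965), and Cd55 most like Gm20939 (0.917) and Adap2 (0.907).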

How the data were processed

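RNA of 18 MSC cultures (6 young, 6 old, 6 rejuvenated old) was sequenced from stranded mRNA libraries. The authors used HISAT2 (mm10), StringTie, featureCounts and DESeq2 normalization on the Galaxy platform, with versions, annotation and strand setting not given in the sources used here. The deposited signal of each gene is its read count divided by a size factor per library. Values were whole multiples of 1 step per library (100% within 0.01 read), which gave 22936251 to 29559194 reads per library. Gene positions came from RefSeq GRCm38.p6 (mm10), with 25275 of 27179 genes matched, and transcripts from GENCODE.

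The software was DESeq2 1.42.0, edgeR 4.0.16 and limma 3.58.1 in R 4.3.3, and pandas 2.3.3 in Python 3.11.15. The log2(value + 1) of 14353 genes with a mean of at least 10 was fitted with limma, with all 3 groups and a mean-dependent prior variance (trend), and p-values were adjusted over all genes (Benjamini-Hochberg, under 0.05). A group counted as at the floor for a gene when none of its libraries passed 3 reads, and folds against it are lower bounds. Tests were tried on simulated data.

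The genes and lists were chosen with earlier results of these data known. The text names the 9 genes, at most 4 called genes per complement list with the largest fold change in any comparison, copies of the 9, and the 2 genes most like each. The check of Ddx3y and Xist and the leaving out of a pair of libraries were chosen after values were seen. Replicates of a group differed by more than sampling noise (chi-square per degree of freedom 2.6 to 23.7 over 45 pairs). A gene on the list of soluble regulators was counted in the totals over the lists and is not reported here.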

Additional observations from a re-analysis of the deposited data

Results flagged for a closer look

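Within the groups of 6 libraries, 101 sets of values were examined for a library far from the others of its group, and 9 were found, where chance alone gives about 1 in 20. Of the complement genes followed, C3 was at 220.8 in old replicate 5, against 265.0 to 285 in the other old libraries. C4b was at 1261 in old replicate 2, against 747 to 883, and Cfb was at 238 in the same library, against 129.98 to 169. Cfb was also at 2717 in young replicate 4, against 1690.4 to 2033 in the other young libraries.

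Of the other complement genes, old replicate 4 had the highest C1qb (442, against 303 to 341) and C1qc (1912, against 1590.2 to 1676). C1rb was at 370.1 in rejuvenated old replicate 3, against 30.2 to 36.0, while its near copy C1ra was at 7486 there, within the range of its group. C1rl was at 817 in young replicate 3, against 780.5 to 791. Masp2 was at 16.0 in rejuvenated old replicate 6, against 2.83 to 7.45.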

How the results depend on the processing

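The counts of complement genes called kept within 1.5 times of the stated ones under all alternatives run, which covered the pseudocount, the filter on low values, the scaling, a constant prior variance, fits limited to the 2 groups compared, tests on recovered reads, centring of each chromosome, an adjusted p under 0.01 and leaving out each library. They ran from 7 to 9 genes in young against old MSCs, from 6 to 7 in rejuvenated old against old MSCs and from 5 to 8 in rejuvenated old against young MSCs, where the highest counts include Cfd and Cd55 tested without a filter. The other complement genes gave 27, 13 and 27 calls among 28 tested, and over the alternatives 21 to 34, 11 to 14 and 20 to 33 calls, of which the lowest came from 21 genes tested with a mean of at least 50, and 34 and 33 from 48 tested without a filter. The difference of C1ra between rejuvenated old and young MSCs turned in sign with each chromosome centred (0.0065, adjusted p = 0.922), ran from -0.0842 to 0.0154 when each library was left out, and was 0.0685 (adjusted p = 0.155) without rejuvenated old replicates 1 and 3, an alternative chosen after the data were seen. The cause was not tested. The call of C1s1 in the same comparison was lost with each chromosome centred (-0.09, adjusted p = 0.0546). By chromosome, the median difference of young and old MSCs was 0.22 on chromosome 17 (C3, C4b and Cfb) and 0.08 on chromosome 6. Other chromosomes had larger medians, at -0.75 on chromosome 16, -0.69 on chromosome 1 and 0.61 on chromosome 7. Chromosome 1 holds Cd55, C4bp and Cr1l, and Cr1l itself differed by -0.56 ± 0.04 between young and old MSCs. Same-numbered libraries did not deviate together (r from -0.152 to 0.0736 over 18 pairs), so the numbers do not pair them, and a replicate block gave 7, 6 and 6 complement genes called and 27, 14 and 27 of the other complement genes. Over all genes it gave 12219, 5769 and 12210 calls against 12297, 5971 and 12288 without it. Depth limits Cfd and Cd55 most, with at most 26 and 24 reads in any library.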

Other observations

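Antigen presentation genes were close to C4b and Cfb in a second respect. When the group means were removed, the deviations of Cfb over the 18 libraries were most like those of Cd274 (Pearson's r 0.909), which encodes a T-cell inhibitory ligand, and also like those of H2-T23 (0.895) and C4b (0.872). Those of C4b were most like H2-K1 (0.898), Cfb (0.872) and Psmb9 (0.865), a subunit of the immunoproteasome. These genes were looked up after the data were seen, and the points share libraries and normalization.

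A library of each group was high in several of these genes, namely old replicate 2, young replicate 4 and rejuvenated old replicate 1. Cfb was the highest of its group in each of these libraries. Because the genes were picked by likeness to the deviations of Cfb or C4b, high values there follow from the choice and are no further finding. H2-K1 was at 2995 in old replicate 2 and at 8544 in young replicate 4, the highest of their groups, as were H2-T23 (1773 and 5438), Psmb9 (631 and 290.5) and Cd274 (129.0 and 127). In rejuvenated old replicate 1, Cd274 was at 129.75 against 57.6 to 79.2 in the other rejuvenated old libraries, and H2-T23 (2126), H2-K1 (4777) and Cfb (491) were the highest of the group, while Psmb9 (753) was not. Between groups these genes parted. H2-K1 was at 6303 to 8544 in young, 1653 to 2995 in old and 3672 to 4777 in rejuvenated old MSCs, a rise of 1.04 in rejuvenated old over old MSCs (adjusted p = 2.75e-08). Psmb9 also rose in rejuvenated old over old MSCs (0.72, adjusted p = 0.000369) but was lower in young than in old MSCs (-0.92, adjusted p = 3.59e-06). Cd274 differed by -0.02 between young and old MSCs and by -0.06 between rejuvenated old and old MSCs (adjusted p = 0.933 and 0.837).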
